A study of Mus musculus with 12 samples.

Results

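The genes of oxytocin (Oxt) and vasopressin (Avp) were followed with those of their receptors Oxtr, Avpr1a and Avpr1b in RNA from mouse brain punches. These 5 genes were taken by name from the 54429 entries of the count table, whatever their values. The study sequenced 12 libraries of C57BL/6 mice, 3 in each of 4 groups. Titles place 6 libraries in the BLA, the usual short form of the basolateral amygdala, and 6 in the VTA, that of the ventral tegmental area. In each region, 3 libraries came from mice socially isolated early in life (called isolated here) and 3 from group-housed mice. All BLA mice were male and all VTA mice female, so that region and sex cannot be told apart in any comparison of BLA with VTA. No transgene or other treatment is named, and no age is stated. Whether the 3 libraries of a group are from different mice is not stated either, so p-values here reflect the spread among libraries, which may be technical.

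Oxytocin and vasopressin are short peptide hormones made mainly by neurons of the hypothalamus, each cut from a longer precursor that also holds a carrier protein, a neurophysin. They are released into the blood from the posterior pituitary and within the brain from axons and dendrites, so the messenger RNA lies mostly in the cell bodies and not where the peptide acts. The oxytocin receptor and the vasopressin receptors encoded by Avpr1a and Avpr1b couple to G proteins of the Gq class and are studied for their part in social behaviour.

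Oxt and Avp are neighbours on chromosome 2 (mouse build GRCm38, GENCODE annotation). Oxt runs from 130576173 to 130577054 on the plus strand with 537 exon bases, and Avp from 130580620 to 130582554 on the minus strand with 577. They face each other tail to tail across 3565 bases with 0 genes annotated between them. Their hormone-coding stretches, both in exon 1, are shown because 5 of 27 bases separate the hormones that the counts are meant to tell apart. The lines give them 5′ to 3′ on each gene's own strand, Oxt at chr2:130576267-130576293 on the plus strand and Avp at chr2:130582446-130582472 on the minus strand, with the bases that differ in capitals.
Oxt: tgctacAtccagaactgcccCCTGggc
Avp: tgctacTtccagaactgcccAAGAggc
Counted from the first base shown, the changes from Oxt to Avp are A7T, C21A, C22A, T23G and G24A. They fall in 3 of the 9 codons and change the amino acid in 2 of them, the 3rd and the 8th.

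Exon 2, which encodes most of each neurophysin, is nearly the same in both genes, with 193 of 202 bases identical (95.5%). Within it lies a run of 125 bases with no difference, at chr2:130576591-130576715 on the plus strand in Oxt and chr2:130581133-130581257 on the minus strand in Avp. It is shown, all in lower case, because a read that lies wholly within it carries no base that assigns it to either gene.
Oxt and Avp, shared run: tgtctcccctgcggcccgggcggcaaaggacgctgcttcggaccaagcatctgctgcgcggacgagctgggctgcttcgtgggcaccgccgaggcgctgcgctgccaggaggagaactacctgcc
Of all 50-base words in the Oxt transcript 16% also occurred in the Avp transcript, and 14.8% of those of Avp occurred in Oxt. The handling of reads with several matches is not given in the sources used here. The counts of both hormone genes are therefore uncertain, by an amount that these shares of words, which are not shares of reads, do not give. The receptor genes lie on other chromosomes and share no exon base with another annotated gene: Oxtr at chr6:112473683-112489943 on the minus strand, Avpr1a at chr10:122448499-122453452 on the plus strand and Avpr1b at chr1:131599239-131612000 on the plus strand. The antisense gene Gm48877 overlaps Avpr1a outside its exons.

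Total counts per library ran from 28278708 to 69276892, and levels are given as CPM, counts relative to the size of the library after TMM scaling of all 12. A count of 3 in a library, taken as the limit below which a gene was not told from 0, corresponded to between 0.0357 and 0.182 CPM. In 3 BLA libraries, isolated 3 and group-housed 1 and 2, 18.6%, 28.6% and 41.8% of the counts fell on 3 loci that hold ribosomal RNA sequence, against at most 1.57% in the other libraries. The region labels fitted their markers. The dopamine transporter Slc6a3 ran from 231 to 520 CPM in VTA and from 0.424 to 1.09 CPM in BLA, and the glutamate transporter Slc17a7 from 449 to 983 CPM in BLA and from 2.88 to 232 CPM in VTA, where isolated library 3 was highest. The choroid plexus marker Ttr reached 205 and 3110 CPM in VTA isolated libraries 1 and 3, against at most 4.24 CPM elsewhere.

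The 5 genes were tested by the quasi-likelihood test of edgeR fitted to all genes that passed a filter on low counts, with Benjamini-Hochberg adjustment and a threshold of 0.05. Within BLA 2 of the 5 passed the filter (Oxtr and Avpr1a), and in the other comparisons 3 did (Avp too). Oxt and Avpr1b passed in no comparison. None of those tested was called between isolated and group-housed mice. In BLA 0 of 22110 genes was called (0%), with 439 at an unadjusted p under 0.05 and 6 called by DESeq2. In VTA 1 gene of 24082 was called (0.00415%), with 4408 at an unadjusted p under 0.05, and 486 by DESeq2, none of them a gene of this set. DESeq2 gave Avp no adjusted p there, at an unadjusted p of 0.075 by its test. For the difference between the responses in BLA and VTA 0 of 25009 genes was called (0%), with 3729 at an unadjusted p under 0.05 and 138 by DESeq2, again with none of the 5. Between VTA and BLA 11938 of 25009 genes were called (47.7%), among them 2 of the 3 tested here, Oxtr and Avpr1a.

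Oxt, the oxytocin precursor gene, was at the limit of detection in most libraries. The counts in VTA were 6, 6 and 2 in isolated libraries 1 to 3 and 58, 6 and 8 in the group-housed ones. In BLA each isolated library had 2 counts and each group-housed library 0. A single library, VTA group-housed 1, thus held 63% of all Oxt counts of the study, at 0.858 CPM (95% exact binomial interval 0.651 to 1.11, which covers counting error only). The other 11 libraries lay between 0 and 0.135 CPM. All 9 Oxt counts above 0 were even numbers, as were all 4 such counts of Avpr1b. The other members had odd counts too, with 7 even and 3 odd for Avp, 5 and 7 for Oxtr and 4 and 8 for Avpr1a. In every library more genes had a count of 2 (median 2367) than a count of 1 (median 1085). How the mates of a read pair were counted is not stated. If each mate counted once, fewer molecules stand behind the Oxt counts and the interval is too narrow.

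The mean Oxt level was 0.352 ± 0.438 CPM in group-housed VTA (SD, n = 3), 0.0811 ± 0.0514 in isolated VTA and 0.0437 ± 0.0149 in isolated BLA. In group-housed BLA a count of 0 allowed up to 0.0828, 0.182 and 0.0531 CPM in libraries 1 to 3. The spread in group-housed VTA exceeded its mean. The 2 VTA groups overlapped, and the isolated BLA libraries, all under the limit of 3 counts, could not be told from the group-housed ones. With no filter on low counts, edgeR's quasi-likelihood test gave a Benjamini-Hochberg adjusted p of 0.00228 for Oxt between VTA and BLA, of 0.365 for isolation in VTA and of 1 in BLA. Without VTA group-housed library 1 these were 0.0459 for VTA against BLA and 0.921 for isolation in VTA. With the filter kept but the 3 BLA libraries rich in ribosomal RNA left out, Oxt passed the filter and the adjusted p between VTA and BLA was 0.051 by edgeR.

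Avp, the vasopressin precursor gene, was low but detected in both regions. In BLA it lay at 0.738, 0.473 and 0.243 CPM in isolated libraries 1 to 3 and at 0.248, 0 and 0.106 in the group-housed ones. In VTA the isolated libraries gave 0.135, 0 and 0.266 CPM and the group-housed ones 0.266, 0.509 and 0.452. The counts behind these values were between 0 and 39 a library. In BLA the isolated libraries were on the whole higher, with group-housed library 1 just above isolated library 3, and in VTA it was the group-housed libraries that were higher, with the lowest of them at the level of the highest isolated one.

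Neither order held up as a call. In VTA the fitted log2 fold change of Avp, isolated relative to group-housed, was -1.73 (SE 0.88, 95% interval -3.75 to 0.30), with an adjusted p of 0.321 by edgeR with Benjamini-Hochberg adjustment. Leaving out single libraries gave -2.92 (without isolated library 3) to -1.05 (without isolated library 2, which had 0 counts), and without isolated libraries 1 and 3 it was -7.91 with only that library left in the group. In BLA Avp did not pass the filter. With no filter its log2 fold change there was 1.88 (SE 0.66), at an unadjusted p of 0.00455 and an adjusted p of 1 by the same test. The response in BLA less that in VTA came to 3.52 on the log2 scale (SE 1.24, 95% interval 0.86 to 6.18), at an unadjusted p of 0.0131 and an adjusted p of 0.303 by edgeR. Between VTA and BLA no difference in Avp was called, with a log2 fold change of -0.16 (SE 0.63, 95% interval -1.50 to 1.18) and an adjusted p of 0.857 by edgeR. Without VTA isolated libraries 1 and 3 it was -3.08 (adjusted p 0.0274 by edgeR), with the remaining isolated library at 0 counts.

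Markers of hypothalamic neurons, the main source of both hormones, were highest in group-housed VTA libraries 1 and 2. Within VTA the group-housed libraries also had the higher mean of both hormone genes. Of 16 marker genes 6 averaged at least 1 CPM, and Kiss1 was at 0 in every library. Summed over the list, the level was 4.44 to 10.2 CPM in BLA. In VTA libraries 1 to 3 it was 26, 51.8 and 15.6 CPM when isolated and 112, 124 and 31.7 CPM when group-housed. Much of it in group-housed VTA was Pmch, the precursor of melanin-concentrating hormone of the lateral hypothalamus, at 37.2, 52.3 and 2.94 CPM, against at most 4.56 in the other libraries. By library Avp did not keep the order of the marker sum. Of the isolated VTA libraries, number 2 had the highest sum (51.8 CPM) and 0 counts of Avp. Number 3 had the lowest sum (15.6 CPM) and the most Avp, 0.266 CPM. BLA isolated library 1, the highest of all in Avp, had a marker sum of 7.96 CPM. The library with most Oxt also had most Pomc, a precursor of hypothalamic and pituitary peptides, at 21.2 CPM against at most 5.52 elsewhere. In it the 10 pituitary markers, 2 of them averaging at least 1 CPM over all libraries, summed to 28.3 CPM. Elsewhere that sum was 2.18 to 4.1 CPM in BLA and 5.42 to 10 CPM in VTA. The pituitary hormone genes differed in order. In VTA group-housed library 1 Cga, the common subunit of several pituitary hormones, was at 2.19 CPM against at most 0.119 elsewhere. Fshb was at 0.384 CPM there against at most 0.0666. Gh and Prl were at 0 and 0.0591 CPM in that library and higher in isolated VTA, with neither called for isolation. In isolated VTA libraries 1 to 3 Gh was at 0.429, 0.298 and 0.815 CPM and Prl at 0.97, 0.609 and 2.68 CPM.

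Of the 16 hypothalamic markers 12 were tested for isolation in VTA. None was called. The fitted value of each of the 12 was lower in isolated mice. Their median log2 fold change was -1.68, against -0.00 over all genes tested. A marker near the limit of detection can pass the filter through 1 group alone. Hmx3 did so through the group-housed libraries, at 0.843, 0.374 and 0.309 CPM against 0, 0.0249 and 0 CPM in the isolated ones. The shared direction and the median are thus not free of the filter. The first listed, Sim1, a transcription factor needed for oxytocin and vasopressin neurons to form, did not follow the sum. It lay at 19, 27.3 and 7.79 CPM in isolated VTA and at 17.8, 24.7 and 14.9 in group-housed VTA, and in BLA at 4.95 CPM in group-housed library 3 and at most 0.221 in the others. Otp, a second factor of the same neurons, lay at 0.316, 0.535 and 0.666 CPM against 1.79, 1.63 and 2.63, groups that did not overlap in VTA, where 29.1% of all genes tested did not. For Otp the log2 fold change came to -2.03 (SE 0.34), adjusted p 0.236 by edgeR. With both group-housed libraries 1 and 2 left out, the log2 fold change of Avp in VTA was -1.85 (SE 1.37), resting on 1 group-housed library. The part of hypothalamic RNA in the hormone values was not tested, and in bulk RNA fewer cells of a type cannot be told apart from less RNA per cell.

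**Figure D1:**
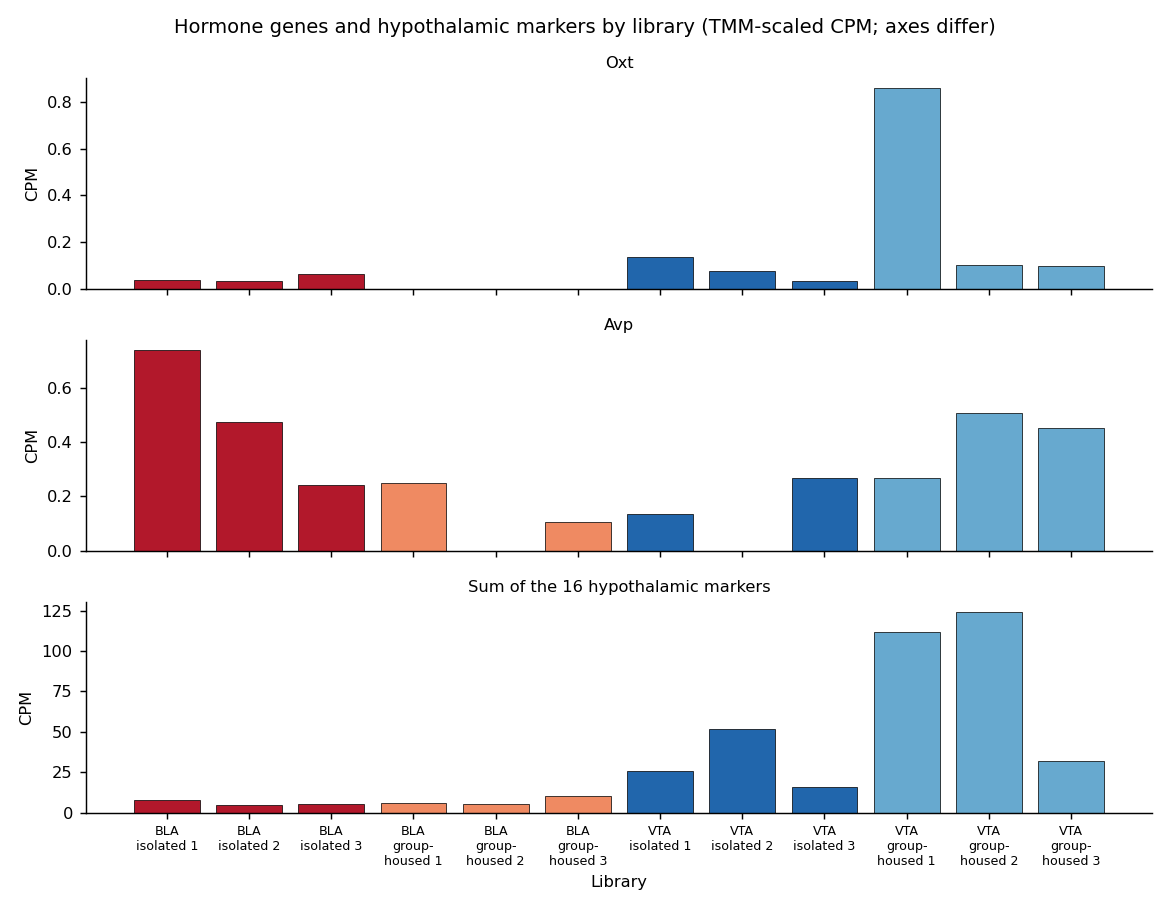
Bars show TMM-scaled CPM in each of the 12 libraries for Oxt, for Avp and for the sum of 16 markers of hypothalamic neurons (y axes start at 0 and differ in scale). Oxt reached 0.858 CPM in VTA group-housed library 1 and at most 0.135 CPM elsewhere, and the marker sum was highest, at 112 and 124 CPM, in VTA group-housed libraries 1 and 2.

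Oxtr, the oxytocin receptor gene, was well measured, with 377 to 1390 counts in a library, and was higher in BLA. In BLA it lay at 18, 21.3 and 21.3 CPM in isolated libraries 1 to 3 and at 21, 22.8 and 24.6 CPM in the group-housed ones. In VTA it lay at 9.23, 8.37 and 14.8 CPM in isolated libraries and at 7.39, 8.3 and 5.83 CPM in group-housed ones. Every BLA library was above every VTA library, and 27.1% of all genes tested likewise did not overlap between the regions, which also differ in sex. The log2 fold change of VTA relative to BLA was -1.29 (SE 0.14, 95% interval -1.58 to -1.0), a 2.44-fold lower level, with a Benjamini-Hochberg adjusted p of 3.17e-06 by edgeR. Leaving out each library in turn gave -1.44 to -1.21.

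Between isolated and group-housed mice no difference in Oxtr was called in BLA. The means were 20.2 ± 1.89 and 22.8 ± 1.79 CPM (SD, n = 3 each), the groups overlapped, and the log2 fold change was -0.17 (SE 0.12, 95% interval -0.43 to 0.08) with an adjusted p of 1 by edgeR. In BLA 7.11% of all genes tested did not overlap between the groups, and neither receptor gene was among them. Within the interval lie falls of up to 0.43 and rises of up to 0.08 on the log2 scale.

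In VTA each isolated library was above each group-housed one, if only just in isolated library 2, with means of 10.8 ± 3.52 and 7.17 ± 1.25 CPM (SD, n = 3 each). Such a lack of overlap was found in 29.1% of all genes tested in VTA. The log2 fold change was 0.53 (SE 0.23, 95% interval 0.00 to 1.06), at an unadjusted p of 0.0492 and an adjusted p of 0.272 by edgeR, so the difference was not called. Isolated library 3 carried much of it, and without that library the value was 0.25 (SE 0.18) at an unadjusted p of 0.192 by the same test. The response in BLA less that in VTA came to -0.77 (SE 0.27, 95% interval -1.34 to -0.20), with an adjusted p of 0.303 by edgeR.

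The 8 markers of cortical and basolateral glutamatergic neurons, the main neurons of the BLA, were higher in BLA than in VTA, as Oxtr was. All 8 averaged at least 1 CPM. Their sum was 802 to 1680 CPM in BLA and 88.6 to 89 CPM in group-housed VTA, and 165, 114 and 488 CPM in isolated VTA libraries 1 to 3. All 8 had a higher fitted value in isolated than in group-housed VTA (median log2 fold change 1.83) with none called. All 8 were called lower in VTA than in BLA (median -3.84), where 47.7% of all genes tested were called in either direction. Among VTA libraries the isolated library 3 was thus highest in these markers and in Oxtr, and among BLA libraries isolated library 1 was lowest in both. Elsewhere the orders differed. In group-housed VTA the sum was flat while Oxtr lay at 7.39, 8.3 and 5.83 CPM. In BLA the sum was highest in isolated library 3 and Oxtr in group-housed library 3. VTA isolated library 3 was also the highest VTA library in central and medial amygdala markers (235 against 93.2 to 123 CPM) and CA2 markers (158 against 100 to 130 CPM). The part of these cells in the Oxtr values was not tested.

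**Figure D2:**
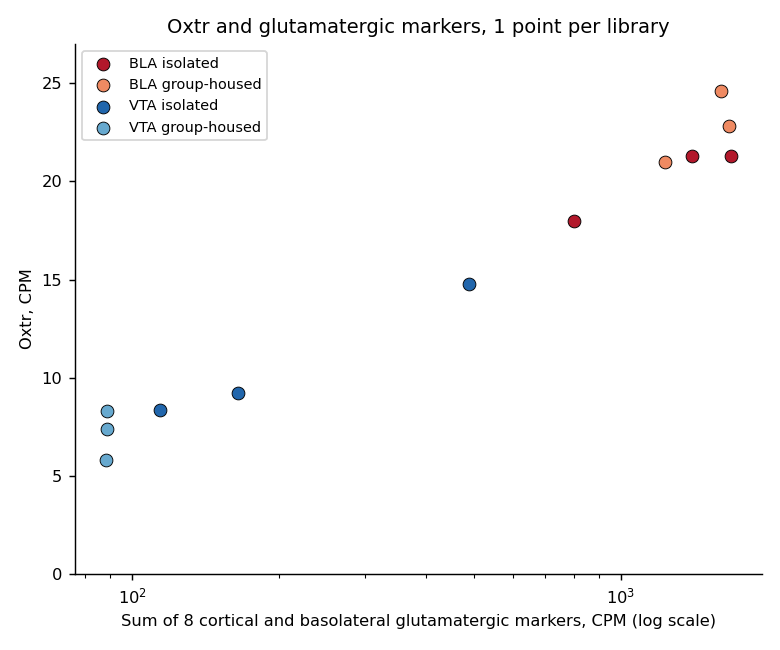
Each point is 1 of the 12 libraries, with the summed CPM of 8 glutamatergic markers on the x axis (log scale) and the CPM of Oxtr on the y axis, coloured by group. The group-housed VTA libraries sit at 88.6 to 89 CPM of markers with 5.83 to 8.3 CPM of Oxtr, VTA isolated library 3 at 488 and 14.8, and the BLA libraries at 802 or more with at least 18 CPM of Oxtr.

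Avpr1a, the gene of the vasopressin receptor that is widespread in brain, showed the opposite order. VTA had 3.81, 5.83 and 4.14 CPM in isolated libraries 1 to 3 and 4.24, 5.31 and 3.76 CPM in the group-housed ones. In BLA it lay at 0.378, 0.44 and 0.304 CPM in isolated libraries and at 0.387, 0.0605 and 0.0885 CPM in group-housed ones. The lowest VTA library was far above the highest BLA library. Between these regions, which also differ in sex, 27.1% of all genes tested did not overlap. The single count in BLA group-housed library 2 was under the limit of 3 counts.

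The log2 fold change of Avpr1a, VTA relative to BLA, was 4.07 (SE 0.29, 95% interval 3.46 to 4.68), a 16.8-fold higher level, with an adjusted p of 6.62e-08 by edgeR with Benjamini-Hochberg adjustment. By that test it ranked 153rd of the 25009 genes. Leaving out each library in turn gave 3.82 to 4.66, the last without BLA group-housed library 1, and without the 3 BLA libraries rich in ribosomal RNA it was 4.59. The 8 dopamine neuron markers were all called higher in VTA (median log2 fold change 5.67), where 47.7% of all genes tested were called in either direction. They summed to 804 to 1700 CPM in VTA and to 49.5 to 82.1 CPM in BLA. Within VTA, group-housed library 3 was highest in that sum (1700) and lowest in Avpr1a (3.76 CPM). Group-housed library 1, lowest in the sum (804), had 4.24 CPM of Avpr1a. Isolated library 2, highest in Avpr1a (5.83 CPM), had a sum of 1360 CPM. The part of dopamine neurons in the Avpr1a values was not tested.

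Isolation and Avpr1a showed no call in either region. In VTA the means were 4.6 ± 1.08 and 4.44 ± 0.797 CPM (SD, n = 3 each), and the log2 fold change was 0.00 (SE 0.23, 95% interval -0.51 to 0.52) with an adjusted p of 0.995 by edgeR. The interval stops short of a 1.5-fold change in either direction. In BLA the means were 0.374 ± 0.0684 and 0.179 ± 0.181 CPM (SD, n = 3 each), from 57 and 20 counts in all. The isolated libraries were alike, and among the group-housed ones library 1 was at their level and the other 2 below it. The log2 fold change was 1.01 (SE 0.65, 95% interval -0.42 to 2.44), adjusted p 1 by edgeR. Leaving out single libraries gave 0.57 (SE 0.71, without group-housed library 3) to 2.20 (SE 0.77, without group-housed library 1), with an adjusted p of 1 throughout. For the difference of the responses it was 0.96 (SE 0.58, 95% interval -0.26 to 2.19) with an adjusted p of 0.424 by edgeR, and 0.46 to 2.14 without single libraries, again BLA group-housed 3 and 1.

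Avpr1b, the gene of the vasopressin receptor best known from pituitary corticotrophs and the hippocampal field CA2, was hardly seen, with 18 counts in 12 libraries. BLA group-housed library 1 had 4 counts, VTA isolated library 3 had 6, and VTA group-housed libraries 1 and 3 had 2 and 6. The other 8 libraries had 0, and the highest level was 0.11 CPM. No difference was detectable at this depth, and with no filter its adjusted p by edgeR's quasi-likelihood test was 0.332 between VTA and BLA. All 7 CA2 markers averaged at least 1 CPM and summed to 193 to 225 CPM in BLA and 100 to 158 CPM in VTA. The first listed, Amigo2, ran the other way (7.04 to 12.4 CPM in BLA and 28.3 to 57.6 CPM in VTA), and the most abundant, Necab2, lay at 70.3 to 108 and 35.2 to 61.8 CPM. Avpr2, the vasopressin receptor of the kidney, lay at 0 to 0.192 CPM with group means of 0.0774 to 0.116 CPM. Its exons overlap those of Arhgap4 on the opposite strand by 1295 bases, and the strand setting of the counting is not given in the sources used here.

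**Figure D3:**
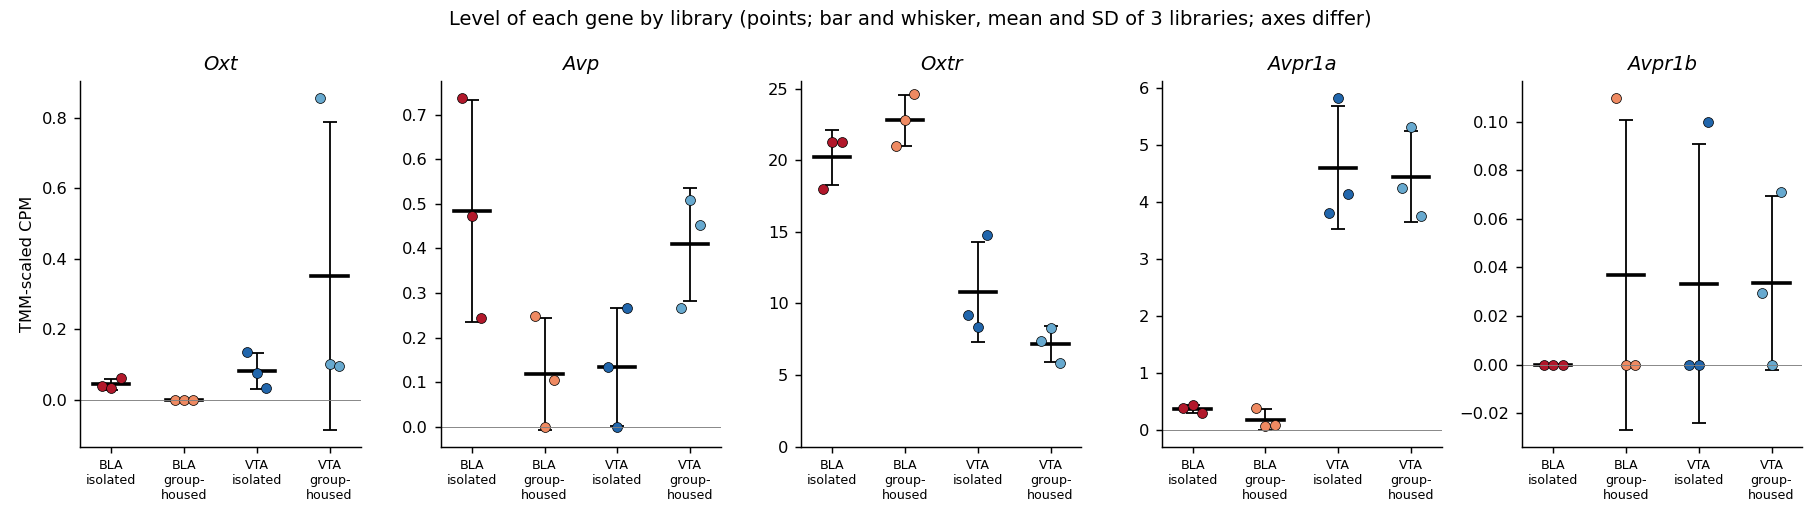
Points give the TMM-scaled CPM of each gene in each library, with bars for the mean and whiskers for the SD of 3 libraries. The y axes differ between genes, and whiskers that pass below 0 come from an SD larger than the mean. Oxtr lay at 18 CPM or more in BLA and at 14.8 or less in VTA, Avpr1a at 3.76 or more in VTA and 0.44 or less in BLA, and the other genes under 1 CPM throughout.

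Per kilobase of exon the genes can be set side by side. Oxtr averaged 4.22 and 4.76 CPM per kb in isolated and group-housed BLA and 2.26 and 1.5 in VTA. Avpr1a averaged 1.72 and 1.66 CPM per kb in VTA and 0.14 and 0.0669 in BLA. Avp, whose transcript is short, came to between 0.205 and 0.84 CPM per kb over the 4 groups, on average above Avpr1a in BLA, where they overlapped in the group-housed libraries, and below it in VTA. Oxt reached 0.655 ± 0.816 (SD, n = 3) in group-housed VTA and at most 0.151 in the other groups, and Avpr1b at most 0.00915.

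The balance of the receptor genes was then taken within each library as the ratio of Avpr1a to Oxtr per kilobase, which does not depend on the scaling of libraries. In VTA the ratio was 0.741, 1.25 and 0.501 in isolated libraries 1 to 3 and 1.03, 1.15 and 1.16 in group-housed ones. In BLA it was 0.0376, 0.0371 and 0.0256 in isolated libraries and 0.033, 0.00476 and 0.00645 in group-housed ones. The last 2 of these rest on 1 and 5 counts of Avpr1a, the first of them under the limit of 3 counts. The genes were thus near parity in VTA, while in every BLA library Avpr1a was at most 0.0376 of Oxtr. The mean log2 ratio was -0.11 ± 0.51 in VTA and -5.78 ± 1.35 in BLA (SD, n = 6 each), a difference of 5.67. The two-sided exact permutation p was 0.00216, the smallest that 924 splits can give, and 0.00648 after Benjamini-Hochberg adjustment over 3 comparisons. Oxtr and Avpr1a each separated the regions fully and in opposite directions, so their ratio had to do so. This p was thus fixed beforehand and adds no evidence to the tests of each gene. Isolated and group-housed libraries differed by 1.71 in BLA (exact permutation p = 0.2) and by -0.52 in VTA (exact permutation p = 0.4), where 3 against 3 libraries cannot go below 0.1.

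**Figure D4:**
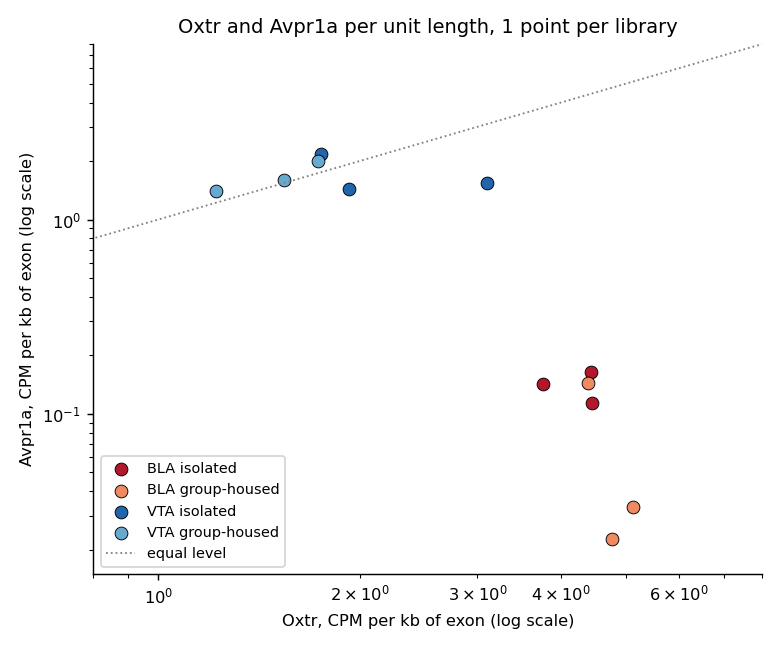
Each point is 1 of the 12 libraries, with Oxtr on the x axis and Avpr1a on the y axis, both in CPM per kilobase of exon on log scales, and the dotted line marks equal levels. The VTA libraries lie near the line, with ratios of Avpr1a to Oxtr between 0.501 and 1.25, and the BLA libraries far below it, with ratios of 0.0376 or less.

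**Figure D5:**
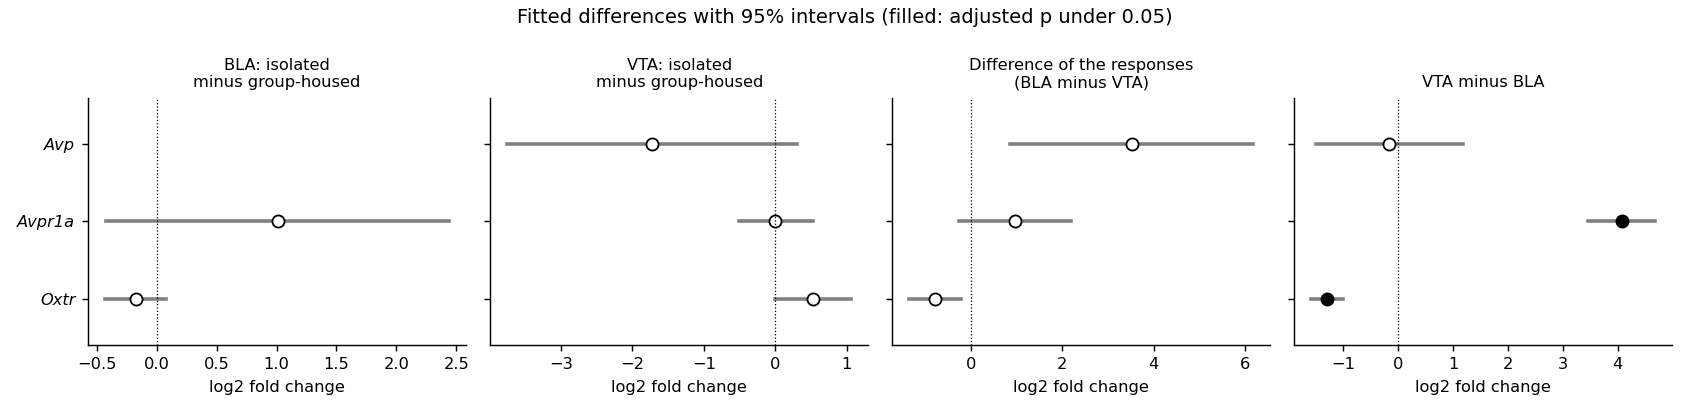
Points are the log2 fold changes fitted by edgeR for the genes that passed the filter in each comparison, with 95% intervals (filled points: adjusted p under 0.05; x axes differ in scale). Only the values of Oxtr (-1.29) and Avpr1a (4.07) between VTA and BLA are filled, and those for isolation in BLA and VTA lie between -1.73 and 1.01.

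Genes that act before and after the receptors gave the setting. Of 13 genes for the processing and release of peptide hormones, all tested, 6 were called higher and 2 lower in VTA than in BLA, where 47.7% of all genes tested were called. The median log2 fold change was 0.20 against 0.02 over all genes tested. Those of smallest p were Scg2, a granin of dense-core vesicles, with a log2 fold change of 1.36 (SE 0.09), and Pcsk2, a convertase that cuts hormone precursors, with -0.75 (SE 0.07). Their adjusted p-values were 3.84e-08 and 1.31e-06 by edgeR. Of the 16 genes of Gq signalling, 3 were called higher and 10 lower in VTA, with a median of -0.62. Plcb4, a phospholipase C, rose with a log2 fold change of 2.13 (SE 0.14, adjusted p 1.77e-07 by edgeR), and Plcb2, of the same family, fell with -1.31 (SE 0.14, adjusted p 2.15e-06 by edgeR). Of 4 transcription factors of magnocellular neurons 3 were called higher in VTA, Otp, Sim1 and Pou3f2, and Arnt2 was called lower.

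None of these lists held a gene called for isolation in either region or for the difference of the responses. In BLA the median log2 fold change was -0.05 in the processing list and -0.05 in the Gq list, against 0.00 over all genes tested. In VTA the medians were 0.02 and 0.14, against -0.00. In the processing list the smallest p-values in VTA were those of Cpe, the carboxypeptidase that trims hormone precursors, with a log2 fold change of 0.38 (SE 0.09), and of Pcsk2, with 0.32 (SE 0.09), both with an adjusted p of 0.236 by edgeR. Their groups did not overlap, as for 29.1% of all genes tested. In the Gq list they were those of Gna11, a Gq-class subunit, with 0.20 (SE 0.08), and Arrb2, an arrestin, with -0.18 (SE 0.08), at adjusted p-values of 0.267 and 0.268 by edgeR. In BLA the smallest p-values were those of Cd38, an enzyme needed for oxytocin release, with 0.48 (SE 0.46), and of Itpr2, a calcium channel of the endoplasmic reticulum, with -0.11 (SE 0.09). Both had an adjusted p of 1 by edgeR.

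Genes that varied most like each member within the groups were sought among 16654 genes with a mean of at least 1 CPM, by Pearson's r of log2 CPM over the 12 libraries after each group's mean was subtracted. For Oxtr these were Tbata (r = 0.990), Dio3 (0.970) and Gda (0.964), and for Avpr1a they included Galnt10 (0.933) and Thsd7b (0.928). For Avp they were Rplp1 (0.980), Mthfd1 (0.960) and Gucd1 (0.956). The values describe these libraries, which share their depth and scaling, and were picked as the highest of so many. Among the 5 genes themselves the same r was between -0.281 (Oxt and Avp) and 0.591 (Avp and Avpr1b). Both ends involve genes near the limit of detection. Avpr1b had 18 counts in all, and a single library held 63% of the Oxt counts.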

How the data were processed

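Per the labels' protocols, RNA was extracted from brain punches with Trizol, depleted of ribosomal RNA and made into stranded libraries. The authors deposited raw counts per gene. The tools named in the submitters' processing notes are HTSeq, TopHat2 and cutadapt, with mm10 as the build. Not given in the sources used here are versions, annotation, strand setting and the treatment of mates and multiple matches. The per-sample tables were read; the series table differs from them at 2 entries, neither of them a gene followed here. Of its names, 53749 (98.8%) matched GENCODE for GRCm38 (mm10), which gave coordinates, exon lengths and sequences.

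The function filterByExpr (minimum count 10 and minimum total 15) chose the genes, TMM factors scaled them, and edgeR 4.0.16 (R 4.3.3) gave the quasi-likelihood tests, on the 6 libraries of a region, or on all 12 for the difference of the responses and for VTA against BLA. P-values were adjusted by Benjamini-Hochberg over all the genes in a fit. Alternatives were DESeq2 1.42.0, RLE factors, no filter on low counts, at least 10 counts in 3 libraries, 1 fit of all 12 libraries, a replicate block, and leaving out ribosomal loci or libraries. Leaving out VTA group-housed libraries 1 and 2 together, and library 1 with no filter, were chosen after seeing the data. The edgeR fits were first tested on simulated data with a common spread for all genes and changes placed in well-counted genes. That test did not cover changes in genes with counts as low as those of Oxt, Avp and Avpr1b. It also did not cover DESeq2, the receptor ratio or the likeness. The genes and gene lists were chosen with earlier results of these data known. Every member is named; other genes are the 2 of smallest p in a list and comparison, the first and the most abundant marker of a list, and the 3 most like each member with at least 100 counts. A gene that this rule selects is not reported here. Hmx3, Pmch, Prl, Cga, Fshb, Kiss1 and Arnt2 were picked after their values were known. Log2 CPM for the likeness used a prior count of 2.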

Additional observations from a re-analysis of the deposited data

How the results depend on the processing

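Oxtr and Avpr1a kept their direction and their call between VTA and BLA under every alternative run. For isolation, no member was called under any, but DESeq2 gave Avp no adjusted p in VTA. The number of genes called for isolation in BLA (0) was 6 with DESeq2, 8 with no filter, 1 without the 3 BLA libraries rich in ribosomal RNA, and 0 to 4 when single libraries were left out (4 without isolated library 2). In VTA (1 gene) it was 486 with DESeq2, 17 with no filter, 0 with the replicate block, 0 without isolated libraries 1 and 3, and 0 to 1200 when single libraries were left out (1200 without isolated library 2; 25 with no filter and without group-housed library 1). For the difference of the responses (0) it was 138 with DESeq2, 1 with no filter, 1 without VTA group-housed libraries 1 and 2, and 0 to 487 when single libraries were left out (487 without VTA isolated library 2; 9 with no filter and without VTA group-housed library 1). The causes were not tested. The log2 fold change of Avpr1a for isolation in VTA, near 0, turned to -0.00 with 10 counts in 3 libraries, to -0.01 with the replicate block, and ran from -0.22 to 0.14 when single libraries were left out (-0.03 with no filter and without group-housed library 1). That of Avp between VTA and BLA was -3.08 (adjusted p 0.0274 by edgeR) without VTA isolated libraries 1 and 3, which leaves an isolated library with 0 counts, and ran from -0.76 to 0.25 when single libraries were left out. Isolated and group-housed libraries of the same number correlated at -0.06 to 0.17 in their deviations from group means. Those of different numbers correlated at -0.10 to 0.11. With 3 libraries in a group, these values cannot show whether the numbers pair the libraries. The replicate block changed no call of a member. Depth limits Oxt, Avp, Avpr1b and, in BLA, Avpr1a.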
